A study of Mus musculus with 2 samples.

Results

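Actin and a set of abundant proteins that bind it were measured as messenger RNA in the mouse line CH12.LX, immortalized cells derived from a B cell lymphoma. The 10 genes, chosen by symbol, were Actb, Actg1, Cfl1, Pfn1, Tmsb4x, Tmsb10, Coro1a, Lcp1, Arpc1b and Arpc2. All 10 were found by Ensembl identifier in the gene tables of both libraries, among 43346 Ensembl entries, of which 21474 are protein-coding genes. The libraries hold polyadenylated RNA sequenced from 1 end and are given as biological replicates 1 and 2 from separate biosamples of the line, labelled as female and of strain B10.H-2aH-4bp/Wts. Neither library carries a treatment, genotype or time point, so the design is 1 group without a second condition. The age and developmental stage are labelled unknown, and a cell line limits what its levels say about B cells in an animal.

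Actin is a globular protein that polymerises into filaments at the cell cortex, and these filaments carry cell shape, migration and, in B cells, the spreading of antigen receptors on an antigen-bearing surface. The monomer pool is held by thymosins, which keep actin from polymerising, and by profilin, which hands it to growing filament ends. Branched networks are nucleated by the Arp2/3 complex, filaments are taken apart by cofilin together with coronins, and plastins tie them into bundles. Mammals have separate genes for the cytoplasmic actins beta (Actb) and gamma (Actg1), whose proteins are nearly identical, and further genes for the actins of striated and smooth muscle.

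The actins and thymosins are shown by sequence because reads from their closely related genes must be told apart. The following are the opening 60 bases of the Actb and Actg1 coding sequences, from the GENCODE M21 transcripts, with the 9 bases that differ in capitals.
Actb: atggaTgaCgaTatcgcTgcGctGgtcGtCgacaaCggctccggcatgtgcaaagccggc
Actg1: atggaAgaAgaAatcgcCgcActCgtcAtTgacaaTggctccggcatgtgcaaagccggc
Over the whole coding length of 1125 bases the actins were 88.6% identical, with 128 differing bases. Their longest identical stretch spans coding bases 889 to 950 and is 62 bases long, so a read of 36 bases inside it fits both genes (the read length is not stated in the sources used here, and 36 bases was chosen for the searches below).
Actb and Actg1: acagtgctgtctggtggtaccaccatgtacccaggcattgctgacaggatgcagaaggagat
The thymosins beta-4 and beta-10 are much shorter and less alike, with 40 of 132 coding bases differing and an identity of 69.7%. Capitals mark the bases at which the coding sequences of Tmsb4x (transcript Tmsb4x-201) and Tmsb10 differ.
Tmsb4x: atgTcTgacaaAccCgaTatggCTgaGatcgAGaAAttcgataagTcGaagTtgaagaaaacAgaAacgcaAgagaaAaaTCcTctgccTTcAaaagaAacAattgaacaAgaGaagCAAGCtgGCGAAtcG
Tmsb10: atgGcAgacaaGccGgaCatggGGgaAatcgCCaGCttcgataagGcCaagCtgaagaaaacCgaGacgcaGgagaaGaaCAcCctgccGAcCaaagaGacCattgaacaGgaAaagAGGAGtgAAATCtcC
The longest stretch that Tmsb4x and Tmsb10 share is 10 bases, so no read of 36 bases in the coding part fits both.

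Levels are given in TPM, a unit scaled to a fixed total per library and corrected for transcript length, which can be set side by side between genes. All 10 genes were detected, meaning at 1 TPM or more in both libraries, which was true of 48% of all protein-coding genes. Their means ran from 163 to 2984 TPM, against a median over detected protein-coding genes of 21.1 TPM in replicate 1 and 20.7 TPM in replicate 2. Summed, the 10 genes held 11482 TPM in replicate 1 and 11889 TPM in replicate 2, or 1.17% and 1.25% of the expected counts (estimated read counts). The libraries held 22996547 and 25715408 expected counts. Mitochondrial genome genes held 2.02% of replicate 1 counts and 3.04% of those in replicate 2, and the part of this difference in the results below was not tested. The labelled cell type was checked on its markers. All 7 B cell markers were detected, among them Cd79b at 525 and 545 TPM and Ms4a1 at 267 and 285 TPM, while 2 of 6 T cell markers and 1 of 5 myeloid markers were detected, the highest of these by mean being Cd3g at 1.69 and 2.11 TPM, with Itgam at 1.79 and 1.24 TPM. Of 6 smooth muscle and stromal markers only Des was detected, at 16.2 and 13.9 TPM.

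Gamma actin led the set. Actg1 (chr11:120345690-120348542, minus strand, mm10) stood at 2759 TPM in replicate 1 and 3210 TPM in replicate 2, a mean of 2984 ± 318 TPM (SD, n = 2), and was number 22 among protein-coding genes by mean TPM. Its counts were 0.352% of replicate 1, with a Wilson 95% interval from 0.350 to 0.354%, and 0.412% of replicate 2, with an interval from 0.410 to 0.415%, where the intervals reflect counting error alone. Actb (chr5:142903115-142906754, minus strand) stood at 1863 and 2310 TPM, a mean of 2087 ± 316 TPM, and was number 36. Replicate 2 was the higher library for both actins, and in each library Actg1 was above Actb, with Actb at 0.675 and 0.720 times the TPM of Actg1. Gamma actin made up 59.7% of the summed TPM of both actins in replicate 1 and 58.1% in replicate 2. Of the 4 muscle actins 1 was detected: Actg2 of smooth muscle had 3.12 and 3.80 TPM, Acta2 had 0.47 and 0.26 TPM, Acta1 had 0.28 and 0.20 TPM, and Actc1 of heart had no count in either library, where a floor of 3 counts would be 0.216 and 0.194 TPM. Muscle actin coding sequences were 81.5 to 84.8% identical to those of Actb and Actg1.

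The proteins that hold monomers ranged from 457 to 1957 TPM by mean. Pfn1 (chr11:70651850-70654644, minus strand), the main profilin outside the nervous system, had 1987 and 1927 TPM, a mean of 1957 ± 42.8 TPM, and was number 40. Its relative Pfn2 had 137 and 111 TPM, so Pfn1 was 14.5 and 17.4 times higher, and Pfn3 and Pfn4 had no count. Tmsb4x (chrX:167207093-167209315, minus strand), which encodes the monomer-sequestering thymosin beta-4, had 1305 and 1346 TPM, a mean of 1326 ± 28.6 TPM. Tmsb10 (chr6:72957347-72958748, minus strand), the gene of thymosin beta-10, had 560 TPM in replicate 1 and 354 TPM in replicate 2, a mean of 457 ± 146 TPM. That SD was 31.9% of the mean, the widest spread among the 10 genes. The ratio of Tmsb4x to Tmsb10 was 2.33 in replicate 1 and 3.81 in replicate 2. With the TPM of the near copies of Tmsb10 described below added, it was 1.19 and 2.02. That sum is over unlike lengths and gives a short copy more weight than its counts. Summed over Pfn1 and both thymosins, the monomer-binding transcripts reached 0.833 times the summed TPM of both actins in replicate 1 and 0.657 times in replicate 2.

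Filament turnover was represented by cofilin and coronin. Cfl1 (chr19:5490455-5495201, plus strand), the cofilin of non-muscle cells, which severs filaments, had 1527 and 1354 TPM, a mean of 1440 ± 122 TPM. It was 12.7 and 12.2 times higher than Dstn (destrin), and 217 and 191 times higher than Cfl2, the muscle cofilin. Coro1a (chr7:126699773-126707787, minus strand), the coronin known from blood cells, was the lowest of the 10, with 176 and 150 TPM and a mean of 163 ± 19.1 TPM. It still lay at the 91.9th percentile of detected protein-coding genes. Among its relatives Coro1b was higher, at 244 and 222 TPM, so Coro1a reached 0.723 and 0.674 times that level. Coro1a was 2.37 and 2.33 times higher than Coro1c, and 5.23 and 5.02 times higher than Coro7.

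Lcp1 (chr14:75131101-75230842, plus strand), or L-plastin, bundles filaments in blood cells and had 623 and 572 TPM, a mean of 598 ± 36.3 TPM. Its relatives were close to absent. Pls1 (I-plastin) had 8 and 11 counts, or 0.13 and 0.29 TPM. Pls3 (T-plastin) had 0 counts in both libraries, so with 3 counts per library as the floor Lcp1 was at least 8512-fold higher in replicate 1 and at least 8685-fold higher in replicate 2. Both Arp2/3 subunits had nearly the same TPM in the libraries. Arpc2 (chr1:74236084-74268209, plus strand), a structural core subunit, had 391 and 384 TPM, a mean of 387 ± 4.67 TPM. Arpc1b (chr5:145114215-145130705, plus strand), a subunit with an alternative form encoded by Arpc1a, had 289 and 283 TPM, a mean of 286 ± 4.30 TPM. Arpc1b had 5.42 and 4.63 times the TPM of Arpc1a, or 2.33 and 1.96 times when only Arpc1b-201, the transcript with the whole coding sequence, was counted.

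In the order of mean TPM, Actg1, Actb, Pfn1, Cfl1, Tmsb4x, Lcp1, Tmsb10, Arpc2, Arpc1b and Coro1a, the ranges of neighbours overlapped in 2 places. Actb and Pfn1 did not differ beyond their spread, and neither did Tmsb10 and Arpc2. In replicate 2 alone Tmsb10 lay below Arpc2, and in replicate 1 alone Pfn1 lay above Actb. The other neighbours did not overlap between the libraries, which with 2 values a gene is a description and not a test.

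**Figure D1:**
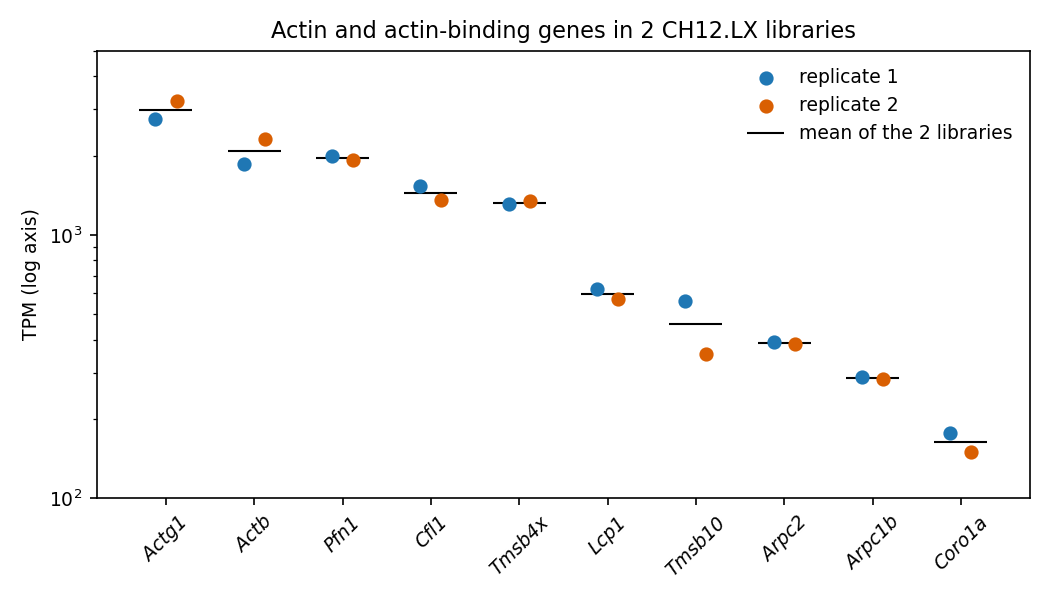
Level of the 10 genes in TPM (log axis), with 1 point for each library and a bar at the mean of both. Actg1 is highest at 2759 and 3210 TPM, Coro1a lowest at 176 and 150 TPM, and the points of Tmsb10 lie farthest apart.

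Many of these genes have processed pseudogenes, copies of the messenger RNA inserted elsewhere in the genome, and reads can fit both. The share of each gene's 36-base words found in no other annotated gene was 60.5% for Actg1, 69.0% for Tmsb10, 71.4% for Arpc1b, 78.7% for Cfl1 and 80.9% for Actb. It was 88.2% for Lcp1 and 96.7% or more for Arpc2, Pfn1, Tmsb4x and Coro1a. The deposited posterior SD measures how firmly the reads were divided, and it was at most 0.949% of the posterior mean count (Tmsb10, replicate 2), under the limit of 5% for all 10 genes in both libraries. It was 0 for Pfn1, Tmsb4x, Coro1a and Arpc2. By comparison, 338 of the detected protein-coding genes (3.28%) were above 5% in a library. That SD depends on the annotated reference sequence, and the strain of the line differs from it.

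Near copies, here genes elsewhere with at least 5% of their own 36-base words in the member, carried appreciable counts for Actg1 and Tmsb10. Gm12715, a processed pseudogene on chromosome 4, matches the Actg1 coding sequence at 1121 of 1128 aligned positions (99.4% identity). The 7 others include gaps, because the copy has 1128 bases and the coding sequence 1125, so fewer than 7 coding bases differ. It was given 3449 counts (194 TPM) in replicate 1 and 1426 counts (72.0 TPM) in replicate 2, with a posterior SD of 4.95 and 8.81%. Actg-ps1 on chromosome 8 was given 438 and 62.1 counts, or 72.7 and 9.27 TPM. Both pseudogenes were lower in replicate 2, where Actg1 itself was higher, while Gm8399 had 78.9 and 142 counts. Whether reads were divided differently between Actg1 and these copies in each library was not tested, and the differences printed for Actg1 carry that limit. Together the measured copies of Actg1 held 4.72% of the combined counts in replicate 1 and 1.55% in replicate 2. Gm16385, Gm6375, Gm8543, Gm47692 and Gm4777 also met the definition but have no measured value, so this share leaves them out. With the measured copies the summed TPM ratio of replicate 2 to 1 was 1.09, against 1.16 for Actg1 alone. That sum adds TPM over unlike lengths, such as 408 bases for Actg-ps1.

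For Tmsb10 the copy that mattered was Gm3788 (chr3:86672033-86672168), a processed pseudogene of 136 bases. It holds bases 21 to 132 of the Tmsb10 coding sequence printed above without a change, a stretch of 112 bases. Aligned to the whole coding sequence of 132 bases, 132 of 136 columns matched (97.1%). The 4 other columns were gaps from the longer copy, so no coding base differed. It was listed at 525 TPM in replicate 1 and 309 TPM in replicate 2, close to the TPM of Tmsb10 itself, from only 825 and 540 counts against 4849 and 3402 for Tmsb10. Copies made up 15.5% and 14.3% of the combined counts. Adding their TPM to that of Tmsb10 gave 1097 and 666 TPM, a mean of 882 TPM, which is above the mean of Lcp1. That sum adds TPM over unlike lengths, 136 bases for Gm3788 against 569 and 568 bases deposited for Tmsb10. It gives the short copy more weight than its counts, so it does not settle the order of Tmsb10 and Lcp1. The next copies, Gm9844 and Gm13588, had at most 7.94 TPM. For Cfl1 the highest copy was Gm6180 (8.59 and 3.13 TPM), for Arpc1b Gm5637 (4.26 and 2.10 TPM) and for Lcp1 Gm7823 (1.39 and 0.37 TPM). Among the copies counted with Actb the highest was Gm15725 (1.62 and 0 TPM). Gm12715, Actg-ps1, Gm8399 and Gm17228 also met the definition for Actb, with 7.87, 6.34, 7.95 and 5.92% of their words in it. They share more words with Actg1 and were counted with Actg1 only. No measured near copy was found for Pfn1, Tmsb4x, Coro1a or Arpc2.

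**Figure D2:**
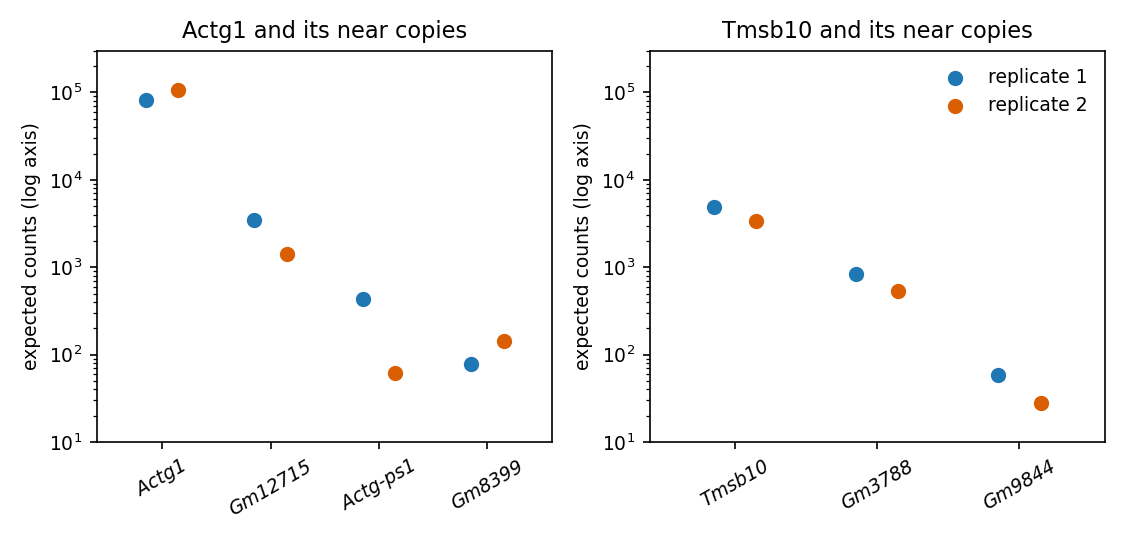
Expected counts (log axis) of Actg1 with 3 near copies, and of Tmsb10 with 2, as 1 point per library. Gm12715 and Actg-ps1 are lower in replicate 2 while Actg1 is higher, and Gm3788 is lower in replicate 2 together with Tmsb10.

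Genes on the opposite strand are a further limit, because no source used here states that counting used strand. Arpc1b shares 931 exon bases, 18.2% of its annotated exons, with Pdap1, which had 212 and 196 TPM. Cfl1 shares 468 exon bases (16.5%) with Snx32, which had 0.61 and 0.92 TPM, and Coro1a shares 26 bases with Bola2, which had 273 and 251 TPM. Reads in these shared bases cannot be told apart by gene without strand.

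The libraries were then compared with each other, which says how far 2 biosamples of the line differed and nothing about a condition. Of the 10 genes, 8 passed a two-sided exact binomial test on counts scaled by TMM (Benjamini-Hochberg adjusted p under 0.05), 3 with a higher value in replicate 2 and 5 with a lower one. That test covers counting error only. It called 30.6% of 15340 genes tested, 14.7% higher and 15.9% lower. Of the 1818 genes whose mean reached 3000 counts, as all of these 10 did, it called 69%, split into 33.6% higher and 35.4% lower. A negative binomial exact test of edgeR, which also counts the general spread between the libraries, called 2.54% of all genes and 0 of the 10, with 0 of them under an unadjusted p of 0.05 and a lowest unadjusted p of 0.114. The median size of the log2 ratio was 0.14 over the 10 genes, 0.12 over the genes at that depth and 0.17 over all genes tested.

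Tmsb10 differed most. Its 4849 counts in replicate 1 and 3402 in replicate 2 gave a log2 ratio of replicate 2 to 1 of -0.65 (adjusted p = 2.89e-89, exact binomial test), and 2.09% of the genes at that depth had a ratio of that size or larger. With its near copies the log2 ratio was -0.67. Actb, with 57139 and 78928 counts, had a log2 ratio of 0.33, a size reached by 8.69% of those genes. Actg1, with 80916 and 105994 counts, had 0.25, or 0.21 with its near copies. The adjusted p of both actins was at or below 1e-300, the smallest value written. Coro1a was lower in replicate 2 by a log2 ratio of -0.24 (adjusted p = 1.74e-12), Cfl1 by -0.16 (1.00e-35) and Lcp1 by -0.12 (1.47e-26), all by the exact binomial test. Differences were smaller for Tmsb4x (0.05, adjusted p = 0.0102) and Pfn1 (-0.03, adjusted p = 0.0202), and the call for Tmsb4x was lost when counts were scaled by library totals (adjusted p = 0.264). Neither Arp2/3 subunit passed, with -0.01 for Arpc2 (adjusted p = 0.844) and -0.03 for Arpc1b (adjusted p = 0.382), again by the exact binomial test.

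**Figure D3:**
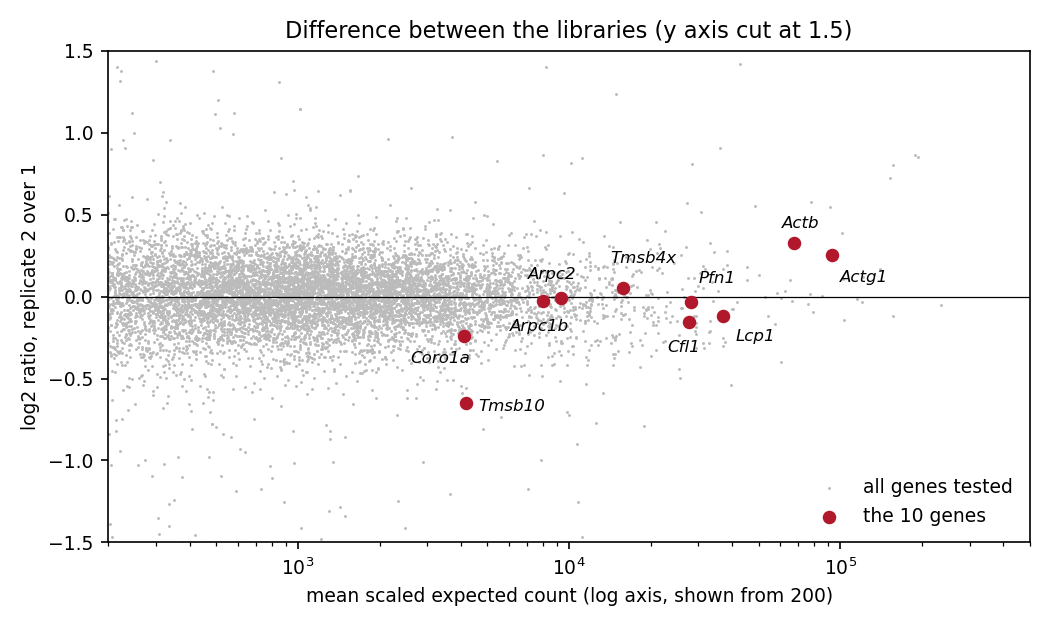
Log2 ratio of replicate 2 over replicate 1 against the mean scaled count (log axis) for the tested genes within the plotted range (grey, 1 point each), with the 10 genes in red. Actb and Actg1 lie above 0 at 0.33 and 0.25, Tmsb10 lies lowest at -0.65, and the other 7 lie between -0.24 and 0.05.

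The transcript tables showed which form of each gene the reads were given to, as a percent of the gene's TPM. In 4 genes 1 transcript held nearly all of it. Cfl1-201 held 100% in both libraries, Actb-201 held 99.3 and 99.6%, Pfn1-201 held 99.2 and 96.8%, and Tmsb10-203 held 97.9 and 97.7%. Lcp1 and Arpc2 each had a main form and a minor one with the same coding length. Lcp1-206 held 79.6 and 79.2% and Lcp1-209 held 19.9 and 19.6%, while Arpc2-203 held 80.2 and 80.8% and Arpc2-201 held 19.6 and 19.2%. Coro1a-201 held 79.4% in both libraries, and retained-intron transcripts of Coro1a held 12.9 and 11.2%.

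Actg1 and Tmsb4x were split in proportions that moved between the libraries. Actg1-204, with 5 exons, held 82.3% in replicate 1 and 71.8% in replicate 2, and Actg1-202, with 6 exons, held 16.1 and 27.5%. Both have a coding length of 1125 bases. In TPM, Actg1-204 stood at 2271 and 2303, while Actg1-202 stood at 444 and 881, so most of the difference in Actg1 between the libraries was assigned to Actg1-202. Tmsb4x-203, annotated with a coding length of 150 bases, held 55.2 and 62.8%, and Tmsb4x-201, with 132 bases, held 43.7 and 35.8%. No transcript was tested between the libraries.

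Arpc1b was the only one of the 10 in which the leading transcript held under 50% in both libraries. Arpc1b-201, with the whole coding sequence of 1116 bases, held 42.9 and 42.3% of the TPM, although it was given 6240 and 6689 of the 7714 and 8312 counts of the gene. The noncoding Arpc1b-204, only 431 bases long, held 28.5 and 29.0% of the TPM from 529 and 585 counts. Arpc1b-205, a coding fragment, held 7.43 and 13.1%, and retained-intron forms held 11.9 and 11.8%. On the TPM scale of Arpc1b-201 alone, the gene stood at 124 and 120 TPM. Coro1a-201 alone stood at 140 and 119 TPM. By leading transcripts Arpc1b was thus below Coro1a in replicate 1 and just above it in replicate 2, unlike the order by whole-gene TPM.

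**Figure D4:**
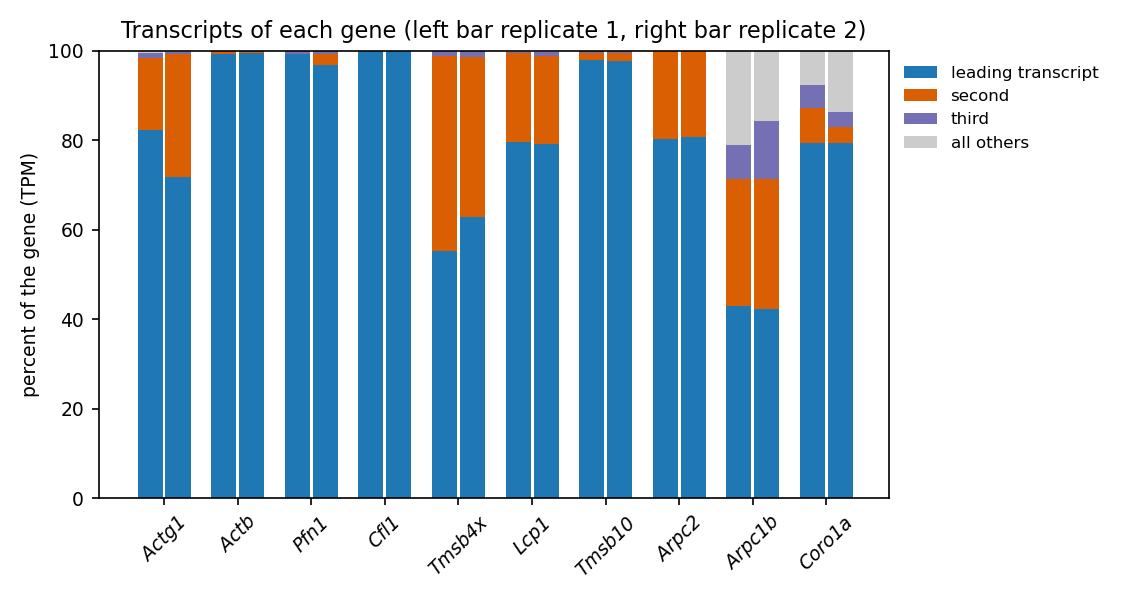
Percent of each gene's TPM on its leading transcript, on the next most abundant ones and on all others, with the left bar for replicate 1 and the right bar for replicate 2. Cfl1, Actb, Pfn1 and Tmsb10 are nearly all 1 transcript, the split of Actg1 and Tmsb4x differs between the bars, and the leading transcript of Arpc1b holds 42.9 and 42.3%.

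The wider actin pathway was read from 15 lists of genes. Apart from the 10, they held 126 measured genes, of which 105 (83.3%) were detected, against 48% of all protein-coding genes. Their median was 49.0 TPM, and 28 had a mean above that of Coro1a. Only 4 of them were above 500 TPM in both libraries, among them Tpm3, Cct5 and Cct8. Of 112 tested, 27 were higher and 26 lower in replicate 2 by the exact binomial test (47.3%, against 30.6% of all genes tested and 69% of those at 3000 counts or more). The negative binomial test called 0. The calls given for single lists below stand against 14.7% higher and 15.9% lower over all genes tested. Detection, medians and calls of single lists include those of the 10 genes that belong to the list.

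In the Arp2/3 complex all 10 genes were detected, with a median of 216 TPM, and 2 were higher and 3 lower in replicate 2. Its most abundant other subunits were Actr3 at 327 and 274 TPM and Arpc4 at 262 and 223 TPM, so Arpc2 led the complex in both libraries. Among proteins that switch the complex on, 13 of 16 were detected, 5 higher and 2 lower in replicate 2. Hcls1, the cortactin relative of blood cells, led them with 575 and 396 TPM, while Cttn (cortactin) had 0.02 and 0.04 TPM. The counts of Hcls1 were 15307 and 14130, with deposited gene lengths (means over its transcripts) of 1666 and 1999 bases. Of the WAVE complex, Cyfip2 had 125 and 143 TPM, Brk1 had 113 and 104 TPM and Nckap1l, its blood cell subunit, had 72.5 and 78.1 TPM. Wasf1 had 0.07 and 0.06 TPM and Wasf3 had no count. The formins, which extend unbranched filaments, had a median of 18.5 TPM, with 9 of 11 detected and 1 called in each direction, led by Fmnl1 at 81.3 and 87.7 TPM and Inf2 at 70.9 and 69.1 TPM.

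Around cofilin, 12 of 13 genes were detected, 3 higher and 3 lower in replicate 2, led after Cfl1 by Cap1, which recycles monomers with cofilin, at 125 and 143 TPM. Of the profilins and thymosins 7 of 10 were detected, 1 higher and 3 lower, and after Pfn1, Tmsb4x, Tmsb10 and Pfn2 none of the others exceeded 6.71 TPM. Capping and severing proteins (8 of 10 detected, 1 called in each direction) were led by Capzb at 296 and 285 TPM, and Scin and Vil1 were at 0.1 TPM or less. Of the coronins 6 of 7 were detected, 1 higher and 3 lower, and Coro2a, at 118 and 164 TPM, was above Coro1a in replicate 2 and below it in replicate 1. Coro2a had 2749 and 3723 counts, with deposited gene lengths of 1468 and 1288 bases, and the part of length in this crossing was not tested. Bundlers and crosslinkers (9 of 12 detected) had, after Lcp1, Tagln2 at 217 and 248 TPM and Actn4 at 97.9 and 107 TPM, and of 11 tested 6 were higher and 1 lower in replicate 2.

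Tropomyosins, which coat filaments (3 of 4 detected), were led by Tpm3 at 731 and 597 TPM. Its expected counts were 20418 and 22307, with a log2 ratio of -0.01, while its deposited gene length, a mean over its transcripts, was 1745 and 2090 bases. Ezr (ezrin), 1 of 4 linkers of filaments to the membrane, all detected, had 224 and 150 TPM from 7083 and 7134 counts, with lengths of 1969 and 2656 bases. Among myosins 9 of 11 were detected, 2 higher and 3 lower, with the light chain Myl6 highest by mean at 314 and 263 TPM and the class I myosin Myo1g at 216 and 209 TPM. The chaperonin that folds newly made actin was abundant in all 8 subunits, with a median of 455 TPM and Cct8 highest at 904 and 830 TPM, and 5 of the 8 were lower and 1 higher in replicate 2. All 8 had over 3000 counts, a depth at which 35.4% of all genes were called lower and 33.6% higher. Srf (serum response factor), which can drive actin genes, was low beside Actb and Actg1, at 28.0 and 28.4 TPM. Its coactivators Mrtfa, at 15.6 and 17.1 TPM, and Mrtfb, at 5.44 and 6.95 TPM, were lower still. Whether they act on the 10 genes in this line was not tested. None of the 15 lists held a gene called by the negative binomial test.

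**Figure D5:**
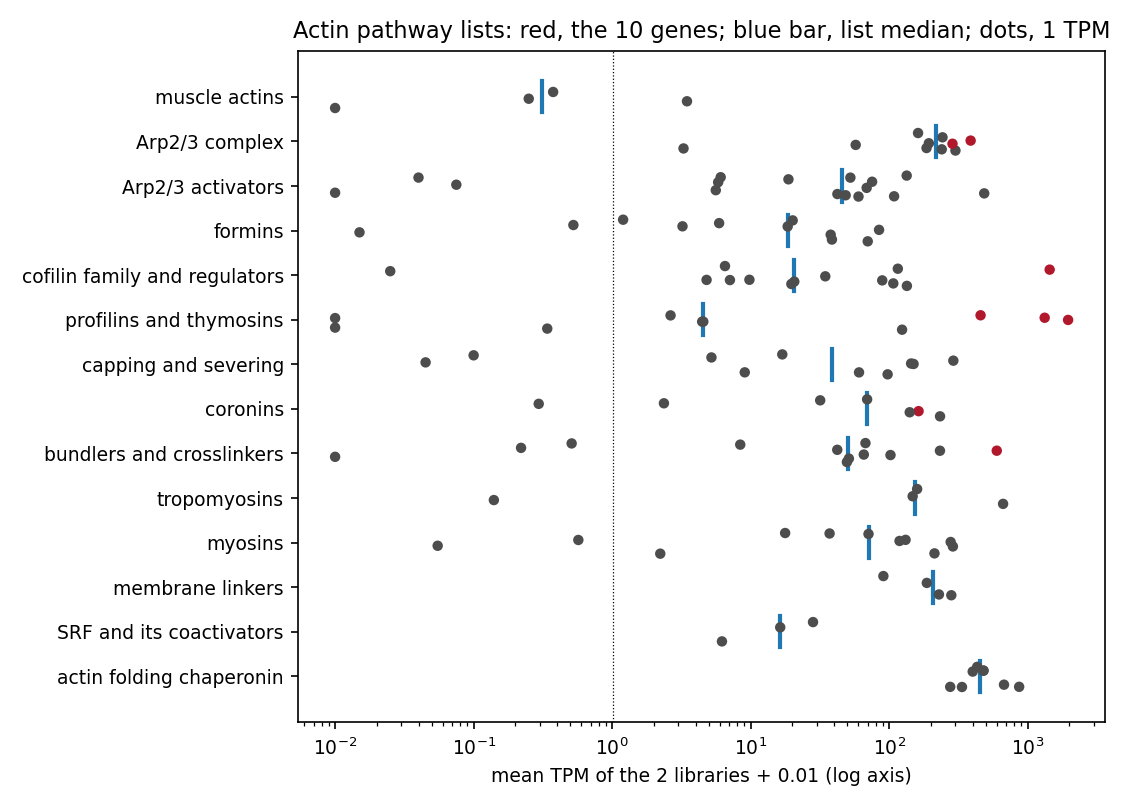
Mean TPM over both libraries plus 0.01 (log axis) for each gene of the lists described, with the 10 genes in red, the list median as a blue bar and 1 TPM as a dotted line. The red points of the cofilin and of the profilin and thymosin lists stand above every other gene of their list, while Coro1a and Arpc1b lie among their neighbours.

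The promoters were read for short motifs. RefSeq windows of the GRCm38.p6 assembly, from 250 bases before to 50 after an annotated start, were found for 9 of the 10 genes (13 windows), all except Actb, and searched on both strands. A CArG box, the sequence bound by the serum response factor, lay in 1 of these windows, that of Actg1, as ccatatatgg from 90 bases before the start. It lay in 1.63% of all 32851 windows and in 1.68% of the windows of 1049 genes at 100 TPM or more in both libraries. The letters GGGCGG, found in the GC box, lay in 12 of the 13 windows, against 35.7% of all windows and 63.8% of those of the abundant genes. CCAAT lay in 2, those of Actg1 and Cfl1 (37.4% of all windows and 40.2% of those of the abundant genes), and TATAAA in 0 (13.6% and 8.68%). The windows follow RefSeq starts, which need not be those of the leading transcripts. The Actg1 window spans chr11:120348446-120348745, while the first base of Actg1-204 lies at 120348091. An Lcp1 window with GGGCGG spans chr14:75130873-75131172, while Lcp1-206 starts at 75190329 and Lcp1-209 at 75136332. A match is a description of the letters, and no match says nothing about the factor.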

How the data were processed

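The 2 libraries of polyadenylated RNA, sequenced single end, were used as 1 group. Gene and transcript tables came from alignments to the transcriptome of mm10 with GENCODE M4, per the file headers and notes. Which aligner and quantifier made them is not given in the sources used here. Expected counts were deposited as estimates that can be fractional. The deposited TPM and FPKM values were scaled by the authors for length and depth. The deposited percent values give each transcript's part of its gene's TPM, and the deposited posterior SD is used as a score of read assignment. Entries with only a number as identifier (0.0426 and 0.0539% of counts) stayed out of library sizes and tests. They held 18255 TPM in replicate 1 and 22456 TPM in replicate 2, and they remain in the deposited TPM scale.

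Names, coordinates and transcript sequences came from GENCODE M21 on GRCm38, the assembly of mm10. Expected counts were rounded, and 15340 genes with at least 10 counts over both libraries entered a two-sided exact binomial test against TMM effective library sizes (edgeR 4.0.16, R 4.3.3), with Benjamini-Hochberg adjustment over all of them; log2 ratios used a pseudocount of 0.5. With 1 library on each side a quasi-likelihood fit has no residual degrees of freedom. The calculation was tested on simulated data with counting error only, which does not cover the spread between the real libraries. Alternatives included DESeq2 1.42.0 size factors, library totals, other count minimums, posterior means and a negative binomial exact test. Without molecular identifiers reads are not independent molecules, so an interval or floor reflects counting error alone. Shared words between genes were counted on M21 transcripts, while the tables were made on M4.

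The members, lists and alternatives were chosen with earlier results of these data known, and the definition of a near copy was set after its values were seen. Named genes were all members, up to 3 near copies of each, fixed relatives, the leading transcript and any at 10% or more, and of each list up to 4 of the most abundant and those not detected. Of the lists, 1 is counted in the totals and is not reported here. Pdap1, Snx32 and Bola2, with other names outside this rule, were chosen after their values were seen.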

Additional observations from a re-analysis of the deposited data

How the results depend on the processing

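Of the values recomputed, 335 stayed within the tolerance used, which was 1 SD between the libraries for a level or ratio, 1.5 times for a count or share of words, and the same direction and call for a test. Beyond it 31 moved, 9 lost their call and 0 reversed. Not all of the 335 are checks. They include 52 values with replicate 1 left out and 52 with replicate 2 left out. With 2 libraries each library alone always lies within 1 SD of the mean. Leaving 1 out is therefore no check of a level, ratio or transcript share, and the values of both libraries stand in the report. The 335 also include 10 levels from FPKM rescaled to the TPM total, which equal TPM by construction apart from rounding. Sums with near copies likewise could not move a gene without a measured near copy. With TPM rescaled over protein-coding genes the means were 3828 for Actg1, 2678 for Actb, 2508 for Pfn1, 1845 for Cfl1, 1699 for Tmsb4x, 766 for Lcp1, 496 for Arpc2, 367 for Arpc1b and 209 for Coro1a, a change of scale by construction. Posterior mean TPM, which also gives a value to entries without a read, was 1841 for Pfn1, 1246 for Tmsb4x, 364 for Arpc2 and 271 for Arpc1b, and gave ratios of 2.28 for Coro1a to Coro1c, 4.88 for Coro1a to Coro7 and 1116 for Lcp1 to Pls1. Posterior leading-transcript shares were 97.4% for Tmsb10 and 77.6% for Coro1a. Tmsb10 summed with its near copies had 882 TPM. Such sums add TPM over unlike lengths, which gives short copies more weight than their counts. Ratios with copies summed, added after the values were seen, were on average 1.61 for Tmsb4x to Tmsb10 and 0.658 for Actb to Actg1, and Arpc1b-201 alone was 2.14 times Arpc1a. The order of the genes kept 44 of 45 pairs in each library alone and with copies summed. With copies summed the changed pair was Tmsb10 and Lcp1, and it rests on the sum over unlike lengths.

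The exact binomial test called 4692 genes and 4374 to 4683 under the other scalings, count minimums and posterior counts. By the negative binomial exact test 389 genes were called, 103 higher and 286 lower, and 0 of the 10, each with an adjusted p of 1 and the same log2 ratio, 0.25 for Actg1, 0.33 for Actb, -0.034 for Pfn1, -0.16 for Cfl1, 0.049 for Tmsb4x, -0.12 for Lcp1, -0.65 for Tmsb10 and -0.24 for Coro1a. That test adds a coefficient of variation of 19.8% between the libraries, estimated from these same 2 libraries as 1 value for all genes. With library totals Tmsb4x had a log2 ratio of 0.025 (adjusted p = 0.264), so 7 of the 10 were called. The median log2 ratio of all genes differed by at most 0.024 between the scalings.

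At 5 TPM the genes detected were 0 muscle actins, 4 profilins and thymosins, 0 T cell markers and 0 myeloid markers. At 1 FPKM 1 T cell marker and 0 myeloid markers were detected, and at 0.5 TPM 2 myeloid markers. No paired analysis was possible because both libraries belong to 1 group. With 2 libraries, a difference between them cannot be told apart from the usual spread of the line, and depth limits only genes with few reads, such as Pls1 and Pls3.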
